A study of Mus musculus with 18 samples.

Results

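Transcript levels were followed along the route that takes glucose into the cell, through glycolysis and on to lactate, the mitochondrion, the pentose phosphate branch or glycogen. The genes were a list of 40, taken by symbol: 2 glucose transporters, the enzymes from hexokinase to lactate dehydrogenase, their regulators, the monocarboxylate and pyruvate carriers, pyruvate dehydrogenase with its kinases, and the entry enzymes of the side branches. Of the 40, 39 were matched among the 22017 genes of the in vitro table and 37 among the 13195 of the bone marrow table. After a filter on low values, 38 entered the tests in vitro (Eno2 did not pass, and Pdk4 was not analysed here) and 32 in bone marrow. The untested members in bone marrow were Slc2a3, Aldoc, Eno2, Slc16a3 and Pfkfb2, and Pfkm, Pdk2 and Pdk4 were not analysed there.

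The samples were mouse bone marrow cells with both copies of Fabp4 intact (WT), 1 copy lost (HET) or no intact copy (KO). Fabp4 is a lipid chaperone, characteristic of fat cells and macrophages. Bulk RNA sequencing was described for 18 samples in 6 groups of 3, each genotype being present in cells labelled as sorted from vitro bone marrow (the in vitro set) and in cells labelled as sorted from bone marrow. The labels state neither the marker used for sorting, the culture, the way the alleles were made nor the age of the mice, and the HET bone marrow group had n = 2 because its replicate 2 was not analysed here. No treatment beyond the sort is named, and the p-values measure the spread between libraries, since the labels do not tie each library to a mouse.

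Glucose enters blood cells through facilitative transporters of the Slc2a family, is trapped by hexokinase and is committed to glycolysis by phosphofructokinase. Pyruvate is then reduced to lactate by lactate dehydrogenase and exported by monocarboxylate transporters, or enters mitochondria and is oxidised by pyruvate dehydrogenase, which pyruvate dehydrogenase kinases switch off. Many of these genes are textbook targets of the hypoxia-inducible factors and of Myc, and quiescent hematopoietic stem cells are known for a glycolytic metabolism.

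Values are FPKM, mapped fragments scaled by transcript length and by library size. The in vitro libraries had an estimated depth of 30.96 to 37.02 M fragments. In bone marrow the estimates spanned 3.98 to 36.14 M, where the HET libraries had 3.98 and 11.76 M. Fabp4 itself reached at most 0.33 FPKM in WT in vitro and was listed at 0 in all 3 KO libraries, a level too low to check the labels. Library pairs correlated across genes at 0.962 to 0.970 (Spearman) in vitro and at 0.427 to 0.621 in bone marrow. All 13 stem and progenitor markers were matched in vitro, with summed levels of 595 to 604 FPKM in WT, 607 to 646 in HET and 623 to 655 in KO. Of the 12 tested, 2 rose in KO against WT, namely Hlf (log2 difference 1.07, adjusted p = 0.00103) and Flt3 (0.64, adjusted p = 0.0168), and 0 fell. In bulk RNA, fewer cells that express a gene and less of its RNA per cell cannot be told apart.

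The promoters of the members with the most stable decreases are shown because these genes fell together in KO cells (values follow). The search used the core of the hypoxia response element, ACGTG or GCGTG, on both strands of the RefSeq windows (GRCm38.p6), 250 bases before to 50 after each start. Capitals mark matches on the printed strand and, read as CACGT or CACGC, on the other strand. Capitals that touch or overlap join, as in CACGTG, which holds ACGTG on both strands. The windows are for Slc2a1 at chr4:119108495-119108794 (plus strand), Pgm1 at chr4:99929201-99929500 (plus), Pfkp at chr13:6648722-6649021 (minus), Ldha at chr7:46845554-46845853 (plus) and Slc16a3 at chr11:120948817-120949116 (plus).
Slc2a1: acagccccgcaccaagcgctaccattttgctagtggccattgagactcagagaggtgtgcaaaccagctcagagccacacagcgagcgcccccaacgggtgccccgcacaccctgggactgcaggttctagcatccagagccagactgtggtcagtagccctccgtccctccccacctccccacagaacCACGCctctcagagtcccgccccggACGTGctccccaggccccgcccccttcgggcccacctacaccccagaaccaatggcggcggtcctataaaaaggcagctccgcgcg
Pgm1: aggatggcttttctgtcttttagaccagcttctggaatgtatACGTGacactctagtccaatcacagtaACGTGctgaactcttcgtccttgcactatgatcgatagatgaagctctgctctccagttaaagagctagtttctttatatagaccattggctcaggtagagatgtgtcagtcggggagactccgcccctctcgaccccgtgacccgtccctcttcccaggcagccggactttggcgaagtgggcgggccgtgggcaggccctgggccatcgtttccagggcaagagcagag
Pfkp: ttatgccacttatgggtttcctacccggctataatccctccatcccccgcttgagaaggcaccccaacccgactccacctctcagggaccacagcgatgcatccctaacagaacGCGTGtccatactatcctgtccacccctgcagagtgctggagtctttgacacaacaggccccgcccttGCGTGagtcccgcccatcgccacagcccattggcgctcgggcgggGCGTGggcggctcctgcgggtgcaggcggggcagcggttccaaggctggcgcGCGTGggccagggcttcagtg
Ldha: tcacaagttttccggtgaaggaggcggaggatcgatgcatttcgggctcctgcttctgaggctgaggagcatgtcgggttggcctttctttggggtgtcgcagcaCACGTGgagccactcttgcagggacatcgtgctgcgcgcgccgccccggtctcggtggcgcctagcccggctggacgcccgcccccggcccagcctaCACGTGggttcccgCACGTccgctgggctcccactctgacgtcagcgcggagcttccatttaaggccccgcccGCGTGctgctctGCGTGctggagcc
Slc16a3: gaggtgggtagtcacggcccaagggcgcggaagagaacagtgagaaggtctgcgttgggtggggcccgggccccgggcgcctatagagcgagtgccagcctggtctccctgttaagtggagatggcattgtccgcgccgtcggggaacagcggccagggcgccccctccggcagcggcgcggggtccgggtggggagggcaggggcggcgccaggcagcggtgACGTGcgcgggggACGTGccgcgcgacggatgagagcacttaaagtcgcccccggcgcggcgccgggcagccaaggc

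In the window printed for each gene, Slc16a3 and Pgm1 held 2 matches each to ACGTG, Slc2a1 held 1 to each core, Pfkp 4 to GCGTG and Ldha 7 in all, 5 of them to ACGTG. Other windows of these genes, where there are any, are not shown. Either core was in a window of 34 of the 39 members with an entry in the promoter table (87.2%; all but Slc2a3), against 46.7% of all 27025 genes with a window. Those genes were not matched to the members in expression, base content or number of windows, so the 2 shares do not show enrichment. Among members that fell in KO cells in vitro the share was 11 of 13 (84.6%), and among tested members not past the threshold it was 21 of 23 (91.3%). Counted by window, since some genes have several, the shares were 14 of 17 (82.4%) and 28 of 37 (75.7%). The order of the 2 groups thus differed between the counts by gene and by window, and the difference was not tested. A match describes the letters in a window and not binding.

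In vitro, KO cells had lower transcripts than WT cells at several steps of the route, with the largest differences at its ends. Both glucose transporters, the lactate exporter Slc16a3 and the glycogen branch genes Pgm1 and Gys1 fell most, while the enzymes between them fell less or did not pass the test. Of 38 tested members 14 fell, 1 rose and 23 did not pass the threshold (limma, adjusted p under 0.05). Over all 10877 genes tested, 1.63% fell and 1.36% rose (177 and 148 genes, or 222 and 120 with quantile normalization and 223 and 122 with median-ratio factors). The median member differed by -0.23 in log2(FPKM + 1), against 0.04 over all genes. The WT and KO libraries did not overlap for 23 members that were lower in KO and 2 that were higher, against 9.09% and 13.8% of all genes. The call held without any 1 library and under every other processing for 6 members, namely Slc2a1, Slc2a3, Slc16a3, Pgm1, Pfkp and Ldha. Without WT replicate 2 the count of calls was 7, and without KO replicate 1 or KO replicate 3 it was 6 in each case. The calls over all genes dropped in the same fits. There 85 fell and 53 rose without WT replicate 2, 43 and 28 without KO replicate 1, and 40 and 26 without KO replicate 3.

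**Figure D1:**
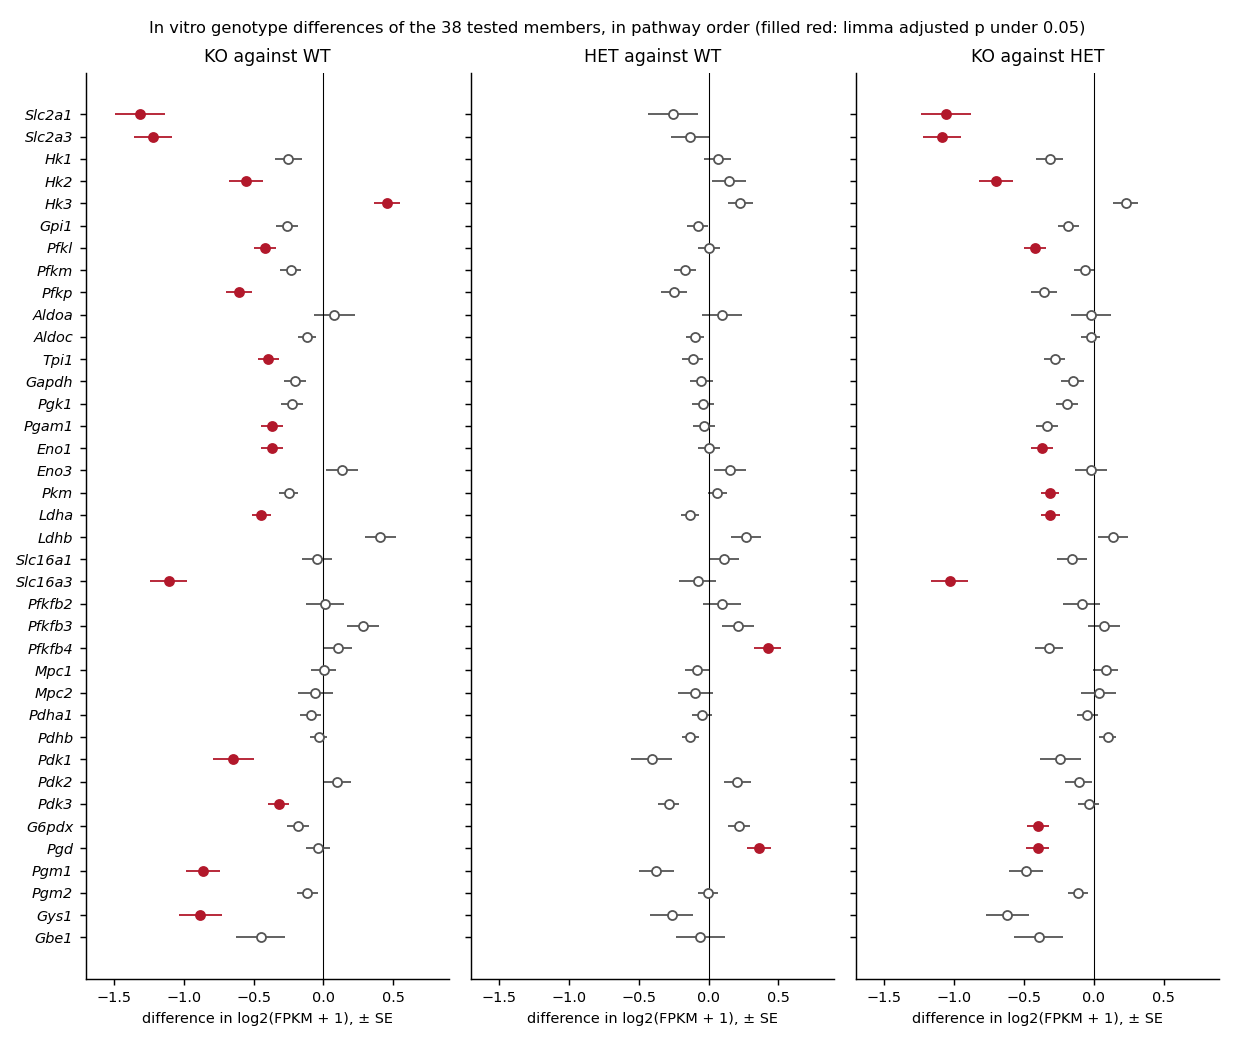
Differences in log2(FPKM + 1) with their standard errors (x axis) for the 38 tested members in pathway order (y axis), for each pair of genotypes in vitro. Filled red points have a limma adjusted p under 0.05: 15 for KO against WT, 2 for HET against WT and 10 for KO against HET.

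Eosinophil markers moved in the same comparison: the 8 matched markers summed to 2217 to 2918 FPKM in WT, 1426 to 2816 in HET and 1208 to 1641 in KO. All 6 tested were lower in KO than in WT (median log2 difference -1.13). Of these, 5 were under an unadjusted limma p of 0.05, as were 19.4% of all genes, and 1 passed the threshold. The 14 matched monocyte and macrophage markers summed to 67.4 to 82.3 FPKM in WT, 124 to 141 in HET and 102 to 105 in KO. Of the 8 tested, 7 were higher in KO than in WT (median over the 8 of 0.34). In this list 5 were under an unadjusted p of 0.05, and 1 rose past the threshold. The 14 neutrophil granule markers summed to 4800 to 6190 FPKM in WT, 6207 to 8703 in HET and 4417 to 7936 in KO, and of the 13 tested 0 were called in KO against WT, 1 being under an unadjusted p of 0.05. None of these markers was at 0 in every library. Their part in the differences described here was not tested.

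Glucose uptake was the step with the largest fall. Slc2a1 encodes the basal glucose transporter of most cells and Slc2a3 a transporter of higher affinity that is abundant in white blood cells. Slc2a1 was at 91.4, 69.8 and 77.5 FPKM in the WT libraries, 53.3, 71.8 and 75.3 in HET and 25.7, 42.0 and 28.2 in KO. All KO libraries were below all others, KO replicate 2 being the highest of them. On the log2(FPKM + 1) scale the KO level was 2.48-fold lower than WT (standard error 0.18 in log2). Slc2a3 was at 119, 110 and 102 FPKM in WT, 76.4, 109 and 122 in HET and 46.2, 45.2 and 49.2 in KO. The KO libraries were nearly equal and lay 2.33-fold lower than WT (log2 standard error 0.14, adjusted p = 0.00103). Of the summed uptake step, Slc2a1 made up 43.4, 38.8 and 43.2% in WT and 35.8, 48.1 and 36.4% in KO. The means were 41.77 ± 2.604% (SD, n = 3) and 40.13 ± 6.950% (exact permutation p = 0.8). With KO libraries on both sides of the WT range and so few libraries, this does not show that the makeup was unchanged.

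Hexokinases moved in opposite directions. Hk2, the inducible isozyme bound to mitochondria, fell, and Hk3, the isozyme of myeloid cells, was the one member that rose. Hk2 was at 53.9, 41.2 and 36.4 FPKM in WT, 44.7, 46.4 and 53.4 in HET and 29.2, 28.7 and 29.5 in KO. The KO libraries were all below WT and nearly equal (log2 difference -0.55, SE 0.12, adjusted p = 0.0344). Hk3 was at 110.4, 99.9 and 89.97 FPKM in WT, 105, 124 and 124 in HET and 134, 145 and 133 in KO. All KO libraries were above all WT and HET libraries (log2 difference from WT 0.46, SE 0.09, adjusted p = 0.024). Hk1, the housekeeping isozyme, was at 66.8 to 81.5 FPKM in WT and 56.1 to 70.2 in KO and did not pass the threshold (adjusted p = 0.182). Leaving out WT 2, HET 2 or any KO library ended the Hk2 call (adjusted p = 0.0579 to 0.123), and leaving out WT 2, KO 1 or KO 3 ended that of Hk3 (0.0803 to 0.0934).

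Hk3 was the most abundant hexokinase transcript in every library. It made up 44.9, 45.2 and 46.6% of the summed FPKM of the 3 isozymes in WT, 45.5, 50.1 and 48.1% in HET and 57.4, 63.1 and 58.5% in KO. Hk2 made up 19.8 ± 1.84% (SD, n = 3) in WT and 12.7 ± 0.27% in KO. The KO libraries did not overlap WT for any of the 3 hexokinases, and the exact two-sided permutation p was 0.1 in each, the smallest that 3 libraries against 3 can give. Over the 40 share comparisons made, these were not past the threshold after adjustment (adjusted p = 0.267).

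**Figure D2:**
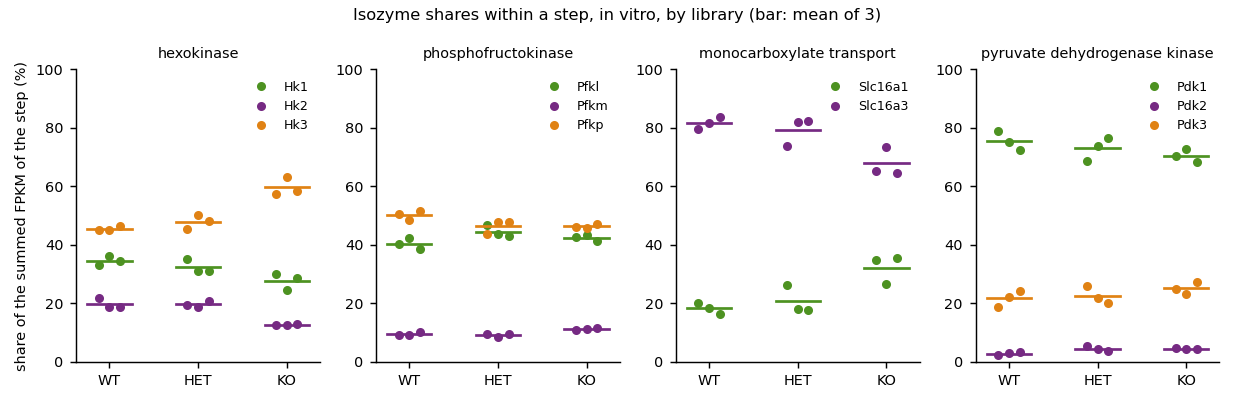
Share of each isozyme (y axis, percent of the summed FPKM of the step) in the 3 libraries of each genotype in vitro, with bars at the means. Hk3 is at a mean of 45.6% of hexokinase in WT and 59.7% in KO, and Slc16a3 at 81.7% and 67.8% of the monocarboxylate pair.

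In upper glycolysis, 2 of the 3 phosphofructokinase subunits fell. Pfkp, the platelet type subunit, was at 160, 141 and 142 FPKM in WT, 106, 132 and 136 in HET and 98.6, 94.9 and 96.1 in KO (log2 difference of KO from WT -0.61, SE 0.10, adjusted p = 0.00768). Every HET library lay between the WT and the KO libraries. Pfkl, the liver type subunit, was at 127.3, 123.1 and 106.5 FPKM in WT, 112.6, 121.5 and 122.7 in HET and 91.4, 90.1 and 84.1 in KO (-0.42, SE 0.08, adjusted p = 0.0204). Here HET lay at the WT level. Leaving out KO 1, KO 3 or WT 2 ended the Pfkl call (adjusted p = 0.072 to 0.113). The muscle type subunit Pfkm was at 27.71 ± 1.011 FPKM in WT and 23.42 ± 0.372 in KO, without overlap but not past the threshold (adjusted p = 0.12). Pfkp made up 50.2 ± 1.54% of the 3 subunits in WT and 46.3 ± 0.76% in KO (exact p = 0.1, the smallest possible).

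Phosphoglucose isomerase and the aldolases did not pass the test. Gpi1, which turns glucose 6-phosphate into fructose 6-phosphate, was at 985 ± 22.2 FPKM in WT against 825 ± 81.0 in KO (adjusted p = 0.0956). The aldolase C gene Aldoc averaged 105 ± 1.59 FPKM in WT against 97.2 ± 3.92 in KO, and Aldoa 26.0 ± 5.35 against 27.4 ± 4.70 (adjusted p = 0.363 and 0.813). The bifunctional Pfkfb enzymes set fructose 2,6-bisphosphate, the activator of phosphofructokinase. Their 3 members were between 1.36 and 13.6 FPKM in WT and KO libraries, and KO did not differ from WT past the threshold (adjusted p = 0.196 to 0.981).

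Lower glycolysis holds the most abundant members, and 3 of its enzymes fell by a small amount. Tpi1, which interconverts the triose phosphates, was at 1242, 1216 and 1227 FPKM in WT, 1087, 1170 and 1148 in HET and 888, 1044 and 879 in KO. Each HET library was below each WT library and above each KO library (KO against WT log2 difference -0.40, SE 0.08, adjusted p = 0.0211). Pgam1, phosphoglycerate mutase, was at 376, 353 and 334 FPKM in WT, 327, 351 and 359 in HET and 259, 303 and 262 in KO (-0.37, adjusted p = 0.0331). Eno1, the main enolase, was at 1942, 1896 and 1956 FPKM in WT, 1967, 1941 and 1899 in HET and 1426, 1702 and 1380 in KO (-0.37, adjusted p = 0.0331). For both genes HET lay at the WT level and KO replicate 2 was the nearest KO library to it.

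These 3 calls were close to the threshold. Leaving out KO 1, KO 3 or WT 2 ended the Tpi1 call (adjusted p up to 0.118). That of Pgam1 ended without any of 6 libraries (all but WT 3, HET 1 and KO 2, up to 0.165), and that of Eno1 without any of 7 (all but HET 1 and KO 2, up to 0.17). Gapdh, Pgk1 and Pkm, the dehydrogenase and both kinases that make ATP, were lower in every KO library than in any WT library without passing the threshold. Gapdh was at 270 ± 10.8 FPKM in WT against 235 ± 20.2 in KO (adjusted p = 0.196). Pgk1 was at 1778 ± 67.1 and 1522 ± 146 (adjusted p = 0.141), and Pkm at 673 ± 44.2 and 565 ± 11.7 (adjusted p = 0.0716). Eno3, the muscle enolase, was at 7.29 ± 0.67 FPKM in WT against 8.11 ± 0.96 in KO (adjusted p = 0.562), and Eno2 was under 0.19 FPKM in every library. Gapdh, Eno1, Aldoa, Pgk1 and Ldha have near-identical copies elsewhere in the mouse genome, so their values depend on how the authors placed shared reads. The Eno1 copy Eno1b was at 20.46 to 38.02 FPKM in the same libraries.

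Of the 4 genes for lactate dehydrogenase and monocarboxylate transport, the transcripts of Ldha and Slc16a3 fell, and Ldhb and Slc16a1 did not pass the threshold. Ldha, the subunit that favours lactate, was at 524, 534 and 545 FPKM in WT, 494, 491 and 476 in HET and 385, 422 and 373 in KO. The 3 genotypes formed separate ranges in the order WT, HET, KO, and KO was lower than WT by 0.44 in log2 (SE 0.07, adjusted p = 0.00602). Ldhb, the subunit of oxidative tissues, was at 1.98 ± 0.10 FPKM in WT against 2.96 ± 0.33 in KO (adjusted p = 0.0716), under 1% of lactate dehydrogenase transcript in all libraries. Slc16a3 encodes the low-affinity exporter of lactate from glycolytic cells. It was at 85.0, 85.6 and 91.7 FPKM in WT, 70.4, 87.8 and 91.6 in HET and 36.0, 50.6 and 35.2 in KO. All KO libraries were below all others, 2.16-fold lower than WT (log2 standard error 0.13).

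The other monocarboxylate transporter did not follow. Slc16a1, which carries lactate in either direction, was at 19.5 ± 1.89 FPKM in WT against 18.8 ± 0.54 in KO (adjusted p = 0.856). Its share of the pair was 18.3 ± 1.98% in WT, 20.6 ± 4.96% in HET and 32.2 ± 4.92% in KO. The WT and KO shares did not overlap, as in 10 of all 20 isozyme shares (exact permutation p = 0.1, adjusted p = 0.267).

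At the entry of pyruvate into mitochondria, the carriers and the dehydrogenase did not pass the test, and 2 kinases fell. The carrier subunits Mpc1 and Mpc2 were at 20.4 ± 1.89 and 28.8 ± 4.37 FPKM in WT against 20.4 ± 1.75 and 27.6 ± 4.57 in KO (adjusted p = 0.992 and 0.838). The pyruvate dehydrogenase subunits Pdha1 and Pdhb were at 73.1 ± 5.12 and 67.51 ± 2.600 FPKM in WT against 68.4 ± 2.97 and 66.0 ± 0.73 in KO (adjusted p = 0.524 and 0.819). Pdk1 inhibits pyruvate dehydrogenase and is known as a hypoxia-induced kinase. It was at 80.1, 61.9 and 58.0 FPKM in WT, 39.2, 54.1 and 57.3 in HET and 41.1, 46.1 and 38.8 in KO. HET overlapped KO, and KO lay below WT (log2 difference -0.65, SE 0.15, adjusted p = 0.0404).

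Pdk3, another kinase of the same family, was at 18.9, 18.3 and 19.4 FPKM in WT, 14.81, 16.08 and 14.99 in HET and 14.5, 14.7 and 15.6 in KO. Its HET libraries were at the KO level, and the KO difference from WT was -0.32 in log2 (SE 0.07, adjusted p = 0.0434). Pdk2 was at 2.43 ± 0.14 FPKM in WT against 2.67 ± 0.14 in KO (adjusted p = 0.613). Leaving out any of KO 1, KO 3, HET 2, WT 1 and WT 2 ended the Pdk1 call (largest adjusted p = 0.172), and leaving out any library but HET 1 ended that of Pdk3 (largest 0.184). Pdk3, Pgk1, Pdha1 and G6pdx lie on chromosome X. In vitro Xist, the RNA of the inactive X, was at 31.4 to 49.6 FPKM in WT, 12.3 to 18.2 in HET and 25.2 to 43.2 in KO. Of 5 sex genes tested, Xist among them, 3 rose and 0 fell in KO against WT, where 1.36% of all genes rose and 1.63% fell. In HET against WT 4 rose and 1 fell (2.94% and 0.735% of all genes). In KO against HET 1 rose and 1 fell (0.598% and 1.39%). The part of sex in the values of these or the other members was not tested.

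In the glycogen branch, the enzyme that turns glucose 6-phosphate into glucose 1-phosphate and the synthase both fell. Pgm1, the phosphoglucomutase, was at 118, 103 and 105 FPKM in WT, 69.5, 90.1 and 93.4 in HET and 53.8, 69.2 and 56.3 in KO. The genotypes formed separate ranges, and KO was 1.81-fold lower than WT (log2 difference -0.86, SE 0.12, adjusted p = 0.00413). Gys1, the glycogen synthase of tissues other than liver, was at 82.5, 65.5 and 63.4 FPKM in WT, 44.5, 63.1 and 70.0 in HET and 37.1, 41.9 and 34.1 in KO. KO lay below all other libraries (-0.88, SE 0.15, adjusted p = 0.013), and the call ended without KO 1 or KO 3 (adjusted p = 0.0682 and 0.0743). The branching enzyme Gbe1 was at 22.8 ± 6.82 FPKM in WT against 16.04 ± 1.89 in KO (adjusted p = 0.187), and Pgm2 at 24.4 ± 0.82 and 22.5 ± 0.74 (adjusted p = 0.425).

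The pentose phosphate dehydrogenases, which make NADPH, were highest in HET and did not pass the threshold between KO and WT. G6pdx, the first enzyme of the branch, was at 49.7, 54.6 and 56.5 FPKM in WT, 68.1, 57.3 and 61.9 in HET and 47.5, 46.5 and 47.2 in KO. Pgd, the third, was at 139, 135 and 126 FPKM in WT, 175, 164 and 176 in HET and 121, 148 and 122 in KO. In both genes every HET library was above all WT and KO libraries. KO against WT gave adjusted p = 0.233 for G6pdx and 0.846 for Pgd.

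**Figure D3:**
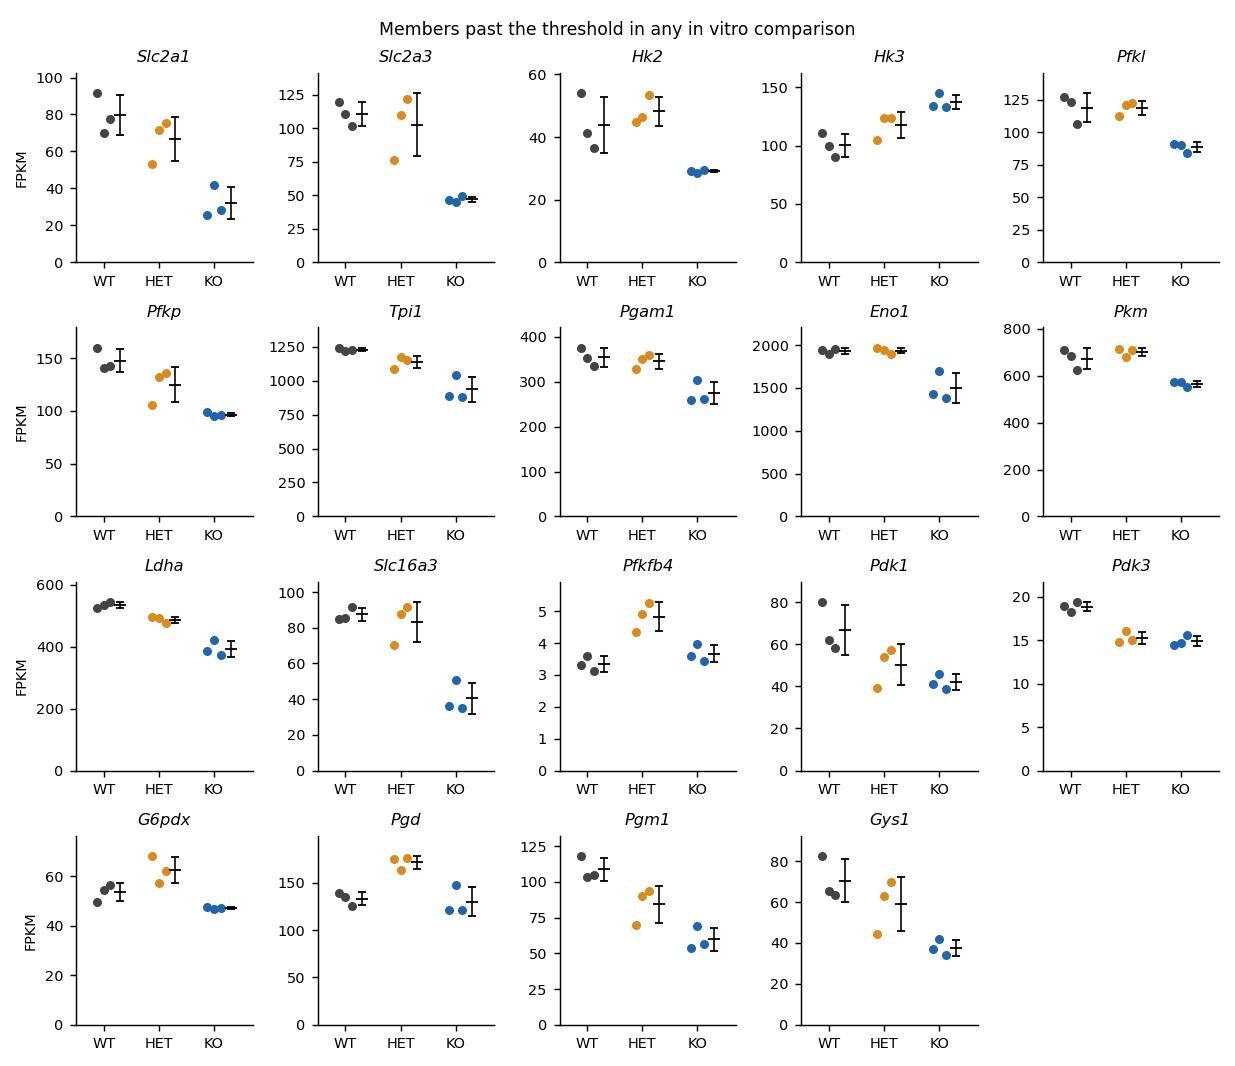
FPKM (y axis, from 0) in each in vitro library for the 19 members past the threshold in any comparison of genotypes, with the mean and SD of 3 libraries at the right of each group. The KO libraries lie below the others for both glucose transporters and Slc16a3, above them for Hk3, and HET stands above both other genotypes for Pgd.

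With 1 copy of Fabp4 lost, the members were called about as often as all genes in vitro. Of 38 tested, 2 rose and 0 fell in HET against WT, where 2.94% of all genes rose and 0.735% fell (320 and 80 genes, or 262 and 173 with quantile normalization), and 10 members were under an unadjusted p of 0.05, as were 23.4% of all genes. In the same comparison 5 of 8 monocyte and macrophage markers and 4 of 13 neutrophil granule markers rose and 0 fell. The members that rose were Pgd (log2 difference 0.36, SE 0.09, adjusted p = 0.0404) and Pfkfb4 (0.42, SE 0.10, adjusted p = 0.041), the isozyme of the Pfkfb family known as hypoxia-induced. Pfkfb4 was at 3.33, 3.60 and 3.11 FPKM in WT, 4.33, 4.91 and 5.25 in HET and 3.60, 3.96 and 3.45 in KO, so that KO lay near WT. Leaving out any library but WT 1 and KO 2 ended the Pgd call (largest adjusted p = 0.146), and any but KO 2 that of Pfkfb4 (largest 0.156). With median-ratio scaling neither was past the threshold (adjusted p = 0.0832 and 0.0555), and Pdk3 fell instead (log2 difference -0.32, adjusted p = 0.0419). Of the 14 members that were lower in KO than in WT, the HET mean lay between the others for 12 and above WT for 2. Some of the 12 were at the WT level, as Pfkl with means of 118.9 FPKM in HET and 119.0 in WT. The 14 were chosen for KO below WT in these libraries, so this count does not show an order by copies of Fabp4.

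Between KO and HET, 10 members fell and 0 rose, against 1.39% and 0.598% of all genes. Cell type markers moved in the same comparison: 4 of 8 monocyte and macrophage markers fell (median difference over the 8 of -0.64), as did 2 of 13 neutrophil granule markers (median -0.62), and 3 of 12 stem and progenitor markers rose (median 0.22). Their part in the member values was not tested. The members that fell were the same transporters and exporter (Slc2a1, Slc2a3 and Slc16a3), Hk2, Pfkl, Eno1, Pkm, Ldha, and both pentose phosphate dehydrogenases. Slc2a3 differed by -1.09 (adjusted p = 0.00155), Slc2a1 by -1.06 (adjusted p = 0.0099) and Slc16a3 by -1.03 (adjusted p = 0.00181). G6pdx and Pgd each differed by -0.40 (adjusted p = 0.0238 and 0.0346), and Pkm, the pyruvate kinase, by -0.31 (adjusted p = 0.0373). Pkm was at 709, 686 and 623 FPKM in WT, 714, 682 and 710 in HET and 573, 571 and 552 in KO. The calls of Slc2a3 and Slc16a3 held without any library, and that of Slc2a1 was lost without HET 2, HET 3 or KO 3 (adjusted p = 0.0564 to 0.0688). Leaving out any of 5 libraries ended the G6pdx call, any of 6 that of Pgd and any of 7 that of Pkm (largest adjusted p = 0.109, 0.17 and 0.183). Those of Hk2, Pfkl, Eno1 and Ldha ended without any of 2, 4, 6 and 6 libraries. With quantile normalization Pkm was at an adjusted p of 0.295. The count was 2 without HET 3, 3 without HET 2 or KO 3, 4 without KO 1 and 6 without WT 2. The calls over all genes, 151 lower and 65 higher, dropped as well. They were 45 and 28 without HET 3, 54 and 33 without HET 2 and 79 and 24 without KO 3. Without KO 1 they were 83 and 33, and without WT 2 123 and 52. KO was used in both comparisons, so that this count and that against WT are not independent.

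The libraries of a genotype were ordered alike for many of the fallen members. HET replicate 1 was the lowest HET library for 12 of the 14, WT replicate 1 the highest WT library for 10 and KO replicate 2 the highest KO library for 9. Over all 38 tested members these counts were 22, 25 and 20. For Slc2a1 the HET 1 value of 53.3 FPKM compared with 71.8 and 75.3 in the other HET libraries, and for Pdk1 the value of 39.2 compared with 54.1 and 57.3. The median coefficient of variation of a member was 7.1% in WT, 6.9% in HET and 8.6% in KO.

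**Figure D4:**
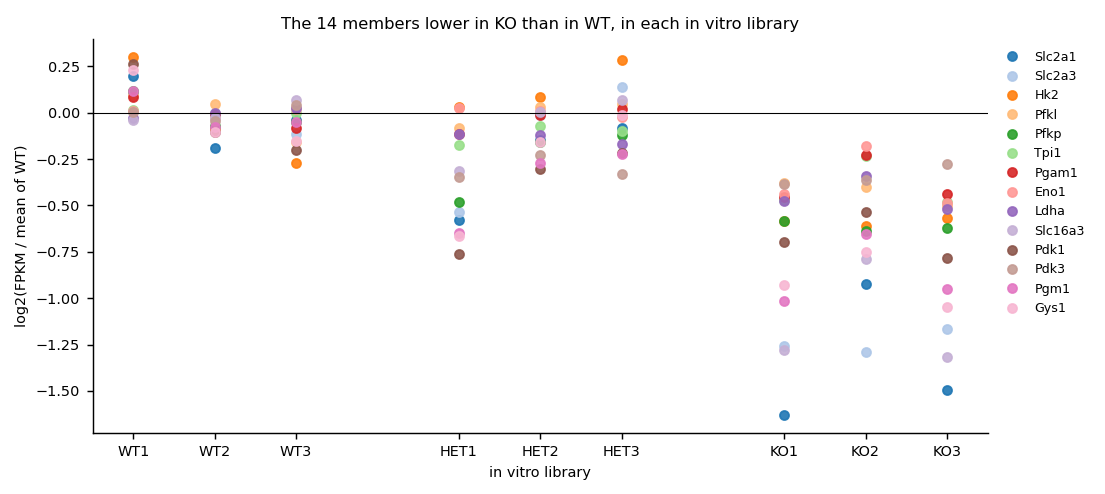
Log2 ratio of FPKM to the WT mean (y axis) for each of the 14 members lower in KO, in each of the 9 in vitro libraries (x axis). HET1 is the lowest HET library for 12 of them, and KO2 is the highest KO library for 9.

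Summed over the route, the members took 1.98, 1.86 and 1.71% of all FPKM in the WT libraries, 1.85, 1.89 and 1.94% in HET and 1.48, 1.57 and 1.45% in KO. KO lay below both other genotypes (exact permutation p against WT = 0.1, the smallest possible), and HET did not separate from WT (exact p = 0.8). The 19 glycolytic enzymes from hexokinase to lactate dehydrogenase made up most of this sum, with 1.65 ± 0.12% in WT, 1.69 ± 0.03% in HET and 1.36 ± 0.06% in KO.

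Among genes near the route, Pgp and Me2 fell in KO cells. They were 2 of the 44 tested among 64 other genes of sugar and pyruvate metabolism, and 0 rose, where 1.63% of all genes fell and 1.36% rose. Without HET 1 or KO 2, 4 were called, where 211 and 235 of all genes fell and 185 and 240 rose. Pgp, a phosphatase that removes side products of glycolysis, was at 40.3, 33.3 and 38.1 FPKM in WT, 31.3, 31.7 and 29.0 in HET and 20.9, 25.0 and 21.0 in KO (log2 difference -0.72, SE 0.09, adjusted p = 0.00262). Me2, the mitochondrial malic enzyme, which makes pyruvate from malate, was at 63.5, 50.2 and 50.2 FPKM in WT, 31.9, 37.0 and 38.7 in HET and 30.85, 32.04 and 28.25 in KO (-0.82, SE 0.11, adjusted p = 0.00245). Me2 was also lower in HET than in WT (-0.59, adjusted p = 0.0119, and 0.057 and 0.0503 without HET 1 or HET 2). Adpgk, the ADP-dependent glucokinase, was higher in HET (18.8 ± 0.58 FPKM) than in WT (12.9 ± 0.84, adjusted p = 0.00984) and KO (13.4 ± 1.21, adjusted p = 0.0184). Those 2 calls both ended without HET 2 or HET 3 (adjusted p of 0.0574 and 0.0628 against WT, 0.108 and 0.106 against KO), and the second without KO 1 (0.0973). Between KO and HET, Pgp also fell (-0.45, adjusted p = 0.0334) and Fbp1, the gluconeogenic fructose bisphosphatase, rose (0.81, adjusted p = 0.0466), each near 0.05 and lost without 5 and 7 of the libraries.

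None of the 19 genes of the tricarboxylic acid cycle passed the threshold in KO against WT (limma, smallest adjusted p = 0.214), and 1 had an unadjusted p under 0.05, as did 19.4% of all genes. Their median difference was -0.06, against -0.23 for the members. In HET against WT and KO against HET the cycle also had 0 calls, with 5 and 1 of the 19 genes under an unadjusted p of 0.05, against 23.4% and 13.2% of all genes.

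Of 26 regulators of the route, 22 were tested, and 4 fell and 1 rose in KO against WT, where 1.63% and 1.36% of all genes did. Hif1a, the oxygen-regulated subunit of the hypoxia-inducible factor, was at 34.8, 37.7 and 30.2 FPKM in WT, 39.9, 38.7 and 43.7 in HET and 37.3, 37.3 and 37.9 in KO (adjusted p = 0.429). Myc was at 81.3, 108 and 128 FPKM in WT and 122.9, 126.0 and 120.5 in KO (adjusted p = 0.341). The genes that fell were the oxygen sensors Egln1 (-1.17, adjusted p = 0.00262) and Egln3 (-1.001, adjusted p = 0.0467), Vhl, which marks the hypoxia-inducible factors for destruction (-0.63, adjusted p = 0.0246), and the fatty acid receptor Ppard (-0.83, adjusted p = 0.00319). Klf4, a transcription factor of monocytes, rose by 1.03 in log2 (adjusted p = 0.00231).

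Egln1 and Egln3 are themselves known targets of the hypoxia-inducible factors, and the part of these factors in the member values was not tested. Egln3 ordered the 3 libraries of each genotype as Slc2a1 did, an order that was not counted over all genes. It was at 298, 242 and 248 FPKM in WT, 156, 221 and 226 in HET and 104, 196 and 108 in KO, with HET 1 and KO 2 again apart from their groups. The Egln3 call ended without any library other than HET 1 and KO 2 (largest adjusted p = 0.193), and leaving out KO 1, KO 3 or WT 2 ended that of Vhl (largest 0.119). In HET against WT Egln1 fell (-0.64, adjusted p = 0.0425), a call lost without any library other than KO 2 (largest adjusted p = 0.137), and Klf4 rose (1.02, adjusted p = 0.00134). In KO against HET only Ppard of the 22 passed (-0.64, adjusted p = 0.0114, and 0.0634 to 0.0782 without HET 2, HET 3 or KO 1).

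In sorted bone marrow no member passed the threshold in KO against WT (limma, 0 of 32), where 0% of all 7246 genes did. Under an unadjusted limma p of 0.05 were 0 members, against 370 of the 7246 genes. The smallest adjusted p of a member was 0.986. Members varied far more between libraries than in vitro, with a median coefficient of variation of 66.1% in WT and 62.2% in KO. Of the 37 matched members, 4, 4 and 6 were listed at 0 in the WT libraries, 18 and 12 in HET and 11, 4 and 5 in KO. A value of 0 can be a failed estimate at this depth, so levels are given library by library.

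Hk3 was at 128, 110 and 84.1 FPKM in WT, 141 and 95.0 in HET and 140, 104 and 240 in KO, so that the genotypes overlapped. Eno1 was at 536, 456 and 883 FPKM in WT, 408 and 482 in HET and 487, 680 and 938 in KO. Ldha was at 66.0, 59.0 and 141 FPKM in WT, 170 and 66.4 in HET and 42.9, 64.4 and 124 in KO. These genes thus showed no separation of KO from WT. Pkm was at 109, 129 and 235 FPKM in WT, 109 and 76.3 in HET and 173, 189 and 133 in KO. Tpi1 was at 284, 127 and 309 FPKM in WT, 96.5 and 4.44 in HET and 279, 238 and 272 in KO. In both genes KO lay within the WT range and above the HET libraries.

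In KO against WT the groups did not overlap for 1 member that was lower (G6pdx) and 3 that were higher, of 32, against 8.14% and 4.11% of all genes. G6pdx was at 101, 125 and 117 FPKM in WT, 139 and 44.7 in HET and 65.9, 43.6 and 80.4 in KO, each KO library being below each WT library without passing the threshold (adjusted p = 0.995). G6pdx is X-linked, and Xist also separated these groups in bone marrow, with 37.6 to 57.2 FPKM in the WT libraries against 5.01 to 13.8 in those of KO (HET 31.4 and 65.1). The Y-linked Eif2s3y was at 1.10 to 5.85 FPKM in KO and listed at 0 in every other library. Their part in the G6pdx values was not tested. Pgd was at 155, 112 and 146 FPKM in WT, 0 and 45.8 in HET and 182, 205 and 61.8 in KO. Slc2a3, with 45.2 FPKM or more in every in vitro library, was at most 0.318 FPKM in any bone marrow library, and levels are not compared between tables beyond this.

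The sole member past the threshold in bone marrow was Pgam1, at 106, 112 and 142 FPKM in WT and 71.7, 172 and 162 in KO and listed at 0 in both HET libraries. It was 1 of 32 in HET against WT (lower, adjusted p = 0.0273) and 1 of 32 in KO against HET (higher, adjusted p = 0.0385). The background was 0.262% and 0.166% of all genes. Each call ended without any WT or KO library (adjusted p = 0.0736 to 0.23 and 0.131 to 0.319). Leaving out HET 1 or HET 3 leaves 1 library in that group, so calls of those fits are not given. The HET libraries were the shallowest by estimate, at 3.98 and 11.76 M fragments, and listed 72.5% and 60.5% of all genes at 0, against 35.4 to 37.9% in WT.

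Neutrophil granule markers took up 1.08 to 8.58% of all FPKM in bone marrow WT, 18.9 to 19.2% in HET and 20.7 to 29.1% in KO, so that every other gene shares a smaller remainder in HET and KO. S100a8 alone averaged 21023 FPKM in WT, 92387 in HET and 107248 in KO, where the marker sums averaged 35128.5, 131832 and 173335. Of the 12 markers tested, 10 were higher and 2 lower in KO than in WT, and 7 higher and 5 lower in HET. None of the 12 was called in either comparison (0% and 0.262% of all genes). Their part in the member values was not tested. The members together took 0.384, 0.429 and 0.520% of all FPKM in WT, 0.342 and 0.294% in HET and 0.353, 0.443 and 0.414% in KO (exact permutation p of KO against WT = 0.5).

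**Figure D5:**
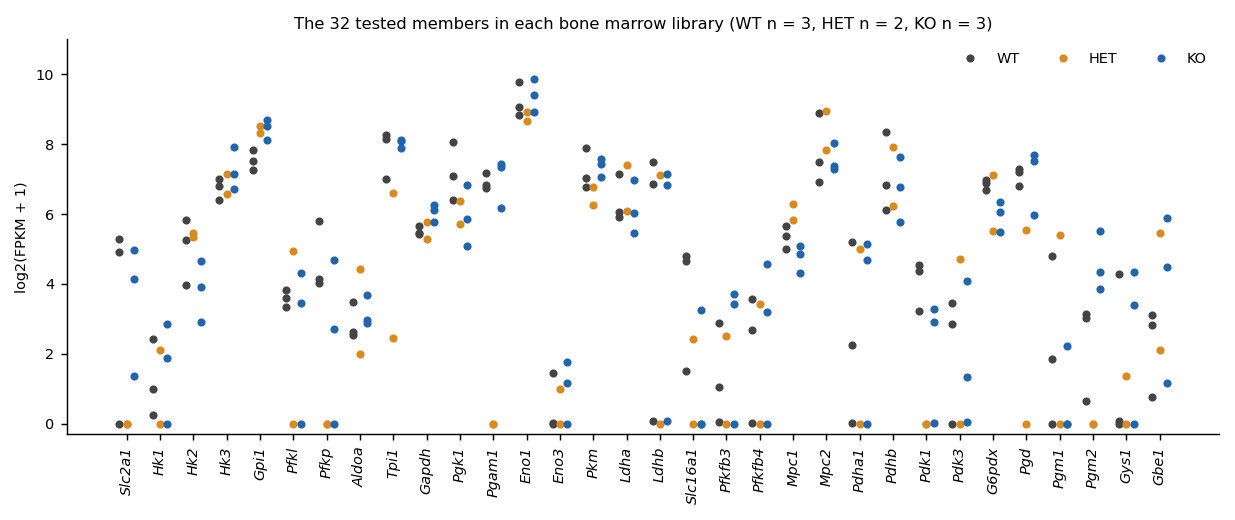
Log2(FPKM + 1) (y axis) of the 32 tested members in pathway order (x axis) in each bone marrow library of WT (n = 3), HET (n = 2) and KO (n = 3). Points at 0 are genes listed at 0, and the genotypes overlap for most members, with Pgam1 at 0 in both HET libraries.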

How the data were processed

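Bulk RNA sequencing covered 9 in vitro and 8 bone marrow libraries of Fabp4 WT, HET and KO mice (17 of the 18 samples). Each set has a table of FPKM deposited by the authors, aligned to mm10 per the submitters' processing notes. Which aligner, counter, annotation and strand setting were used is not given in the sources used here, so reads of overlapping or antisense genes cannot be told apart. Groups were compared within a table.

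Genes that reached an FPKM of 1 in 3 or more libraries entered the tests, run in R 4.3.3 by limma 3.58.1 with statmod 1.5.0. The model used log2(FPKM + 1), robust moderation with a trend, and a mean for each of the 3 genotypes without a block. The p-values were adjusted by Benjamini-Hochberg over all tested genes, and the threshold was 0.05. Differences on this scale understate those of genes with low values. Shares and sums were compared by exact two-sided permutation tests (scipy 1.17.1), which cannot go below 0.1 with 3 libraries against 3. Of these steps, only the limma comparison of KO against WT was run on simulated data, with log values drawn from a normal distribution.

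Depth was estimated from the smallest steps of low values, as the depth that placed the largest share of them within 0.1 of a whole fragment. A lower depth that did nearly as well was preferred. That share was 84.2 to 95.2% in bone marrow, from 13 to 36 low values in a library, and 87.7 to 90.6% in vitro. Being the fitted quantity, the share does not check the estimate. Depth entered no test. Promoters are RefSeq windows of GRCm38.p6.

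The members, gene lists (other genes of sugar metabolism, tricarboxylic acid cycle, regulators, cell type markers and sex genes) and tests were chosen with earlier results of these data known. Members past the threshold in vitro are given in every library and the others by mean and test. Bone marrow values are given for the 8 most abundant of the members past the threshold in either table. Promoters shown are those of members whose call held throughout and that have a window. Alternatives were a pseudocount of 0.1, no filter, a filter at 5 FPKM, quantile normalization, median-ratio factors, TPM, the replicate block, only the compared groups, and leaving out each library.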

Additional observations from a re-analysis of the deposited data

Results flagged for a closer look

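Of 96 member comparisons (32 members tested in both sets, in 3 comparisons), 11 (11.5%) had groups that did not overlap in either set and a direction in vitro opposite to that in bone marrow. Another 5 (5.21%) did not overlap in either set and had the same direction. Over all 6915 genes tested in both sets the shares were 3.37% and 2.93%. The comparisons share libraries. The 5 of the same direction were G6pdx in KO against WT, Pdk1, Pfkp and Tpi1 in HET against WT, and Hk2 in KO against HET. The 11 of opposite direction follow. The difference between the sets was not tested. All values here are differences in log2(FPKM + 1), the in vitro one first. In KO against WT they were -0.20 and 0.53 for Gapdh, -0.26 and 0.90 for the isomerase Gpi1 and -0.12 and 2.31 for the phosphoglucomutase Pgm2. None of these passed the threshold in either set.

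In HET against WT they were -0.078 and 0.88 for Gpi1, and 0.36 and -4.33 for Pgd. In KO against HET they were -0.37 and 0.61 for Eno1, -0.34 and 6.99 for Pgam1, -0.40 and 4.29 for Pgd, -0.31 and 0.83 for Pkm, -1.06 and 3.49 for the glucose transporter Slc2a1 and -0.28 and 3.52 for Tpi1. The 2 HET bone marrow libraries enter 8 of the 11. Slc2a1 and Pgam1 were listed at 0 in both, so their differences give no fold.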

How the results depend on the processing

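No alternative reversed a called direction. In vitro, the 15 members called in KO against WT were 7 without the filter, 9 with the replicate block, 9 with only the compared groups, and 6 to 15 when a library was left out. Over all genes, 177 fell and 148 rose in the main fit. These were 85 and 67 without the filter, 101 and 71 with the replicate block and 109 and 67 with only the compared groups. The 2 called in HET against WT were 0 without the filter, 1 with a filter at 5 FPKM, 1 with median-ratio factors, 0 with the replicate block, 1 with only the compared groups, and 0 to 3 without a library. Over all genes, 80 fell and 320 rose in the main fit. These were 36 and 214 without the filter, 64 and 218 with a filter at 5 FPKM and 94 and 249 with median-ratio factors. With the replicate block they were 34 and 200, and with only the compared groups 43 and 224. The 10 called in KO against HET were 6 with median-ratio factors, 5 with the replicate block, and 2 to 12 without a library. Over all genes, 151 fell and 65 rose in the main fit, 140 and 63 with median-ratio factors and 112 and 48 with the replicate block. The 2 other pathway genes called in KO against WT were 2 to 4 without a library.

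In bone marrow the call of Pgam1 was lost (0 members) with the replicate block and with only the compared groups in both HET against WT and KO against HET. Leaving out any WT or KO library also gave 0. Where a library was left out of the 2 HET libraries, the remaining one was assumed to vary like the other groups, so calls of those fits are not given. The causes of these changes were not tested.

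The replicate numbers did not pair the libraries. Same-numbered libraries deviated from their group means with correlations of -0.303 to 0.181 in vitro and -0.019 to 0.032 in bone marrow, and 2 of 9 and 3 of 8 libraries correlated best with their own number.

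The median member difference of KO against WT was -0.16 after quantile normalization, with the same direction. In HET against WT it was -0.04, and 0.03 after quantile normalization or rescaling to TPM. Rescaling to TPM moved the median difference of all in vitro genes in HET against WT from 0.04 to 0.11. In bone marrow the median over all genes in HET against WT was -0.99, and -0.03 after quantile normalization. At the estimated 3.98 and 11.76 M fragments of the bone marrow HET libraries, a gene listed at 0 is not shown to be absent.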
